A study of Homo sapiens with 4 samples.

Results

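The genes described here encode apolipoproteins, the protein parts of plasma lipoproteins, and MTTP, the large subunit of the microsomal triglyceride transfer protein. They were followed on Affymetrix human genome arrays in Huh-7 cells, an established line from a human liver carcinoma that still makes many plasma proteins. The members were APOA1, APOA2, APOB, APOC1, APOC2, APOC3, APOE, APOH, APOM and MTTP, taken as every probe set that the platform annotation names with 1 of these 10 gene symbols. This gave 15 of the 22215 probe sets in the table, and all 10 genes among the 12165 genes measured. Each gene was represented by its brightest probe set in the comparison by gene. There were 2 arrays of cells harvested 48 h after transforming growth factor beta (TGF-beta, whose receptors act through SMAD proteins) was added. The other 2 arrays were of untreated cells, whose harvest time is not stated, so a match in time is not known. Both groups were the same unmodified line, grown in medium with 10% bovine serum, and no dose of TGF-beta was stated. Whether the arrays of a group came from separate cultures is not stated, and the p-values therefore cover only the spread between these arrays, which may be technical. One transformed line stands for hepatocytes here, and none of the values speaks of lipoprotein particles or secreted protein.

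Hepatocytes make very-low-density lipoprotein by loading lipid onto apolipoprotein B with the help of MTTP, and they secrete the apolipoproteins A of high-density lipoprotein. The smaller apolipoproteins C and E move between particles and set how fast these are lipolysed and taken up by receptors. The genes of APOA1 and APOC3 neighbour each other on chromosome 11, and those of APOE, APOC1 and APOC2 lie together on chromosome 19.

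Array medians were 51.0 and 50.7 after TGF-beta and 50.3 and 50.1 in untreated cells, and between the arrays of a group the typical gene differed by 0.115 on the log2 scale after TGF-beta and by 0.128 in untreated cells. Of 12 hepatocyte markers, 11 were measured and all of these had a mean log2 intensity of at least 6. Their intensities summed to 123495 and 119339 after TGF-beta and to 114889 and 116556 in untreated cells. Of the 11, TTR (transthyretin) fell by 0.63 on the log2 scale (adjusted p = 0.0470) and the other 10 did not pass. ALB (albumin) stood at 0.07 and AFP (alpha-fetoprotein) at 0.06, and HNF4A was not analysed here. SERPINA1 (alpha-1-antitrypsin) at 0.60 (adjusted p = 0.0555) and AMBP at 0.27 (adjusted p = 0.329), picked after their values were seen, were the highest of the 11. The 7 macrophage markers and 6 endothelial markers all lay below a mean log2 intensity of 6. Macrophage sums were 203 and 213 after TGF-beta and 210 and 204 in untreated cells, and endothelial sums 190 and 187 against 210 and 199. Among 7 markers of intestinal enterocytes, which also make apolipoproteins, 1 was at or above 6, VIL1 (villin), and the sums were 2106 and 2162 after TGF-beta and 1696 and 2086 in untreated cells. Of 6 fibroblast markers 1 was above 6, LUM (lumican), with sums of 6981 and 7483 after TGF-beta and 7439 and 6917 in untreated cells. The part of the enterocyte and fibroblast markers in the results was not tested. In arrays of whole cultures, fewer cells of a kind and less RNA per cell cannot be told apart.

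All 15 probe sets of the members had a mean log2 intensity of at least 6. On each array 13 or 14 of them lay above the upper quartile of the array (305 to 308). The dimmer APOM probe set, at 138.8 to 168.6, lay below it on every array. All 15 lay above the array medians, so the floor of the arrays did not limit them. After TGF-beta, 1 of the 10 genes changed at an adjusted p under 0.05 (limma, Benjamini-Hochberg over all genes), and this was a rise, that of APOA1. Of all genes 1.22% passed, with 0.658% of all genes up and 0.567% down. At an unadjusted p under 0.05 the values of 4 members were higher and 0 lower, where 18% of all genes passed, 9.35% higher and 8.6% lower. The 4 were APOA1, APOE, APOM and APOC3. The members' median log2 fold change was 0.08, against -0.006 over all genes, with 6 positive and 4 negative values. The arrays of the groups did not overlap for 6 members, 4 higher and 2 lower after TGF-beta, where 49.1% of all genes did not overlap, 23.3% higher and 25.9% lower. In the fit over all probe sets 2 of the members' 15 passed, where 0.855% of all probe sets did (0.41% rose and 0.446% fell), and both were those of APOA1.

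**Figure D1:**
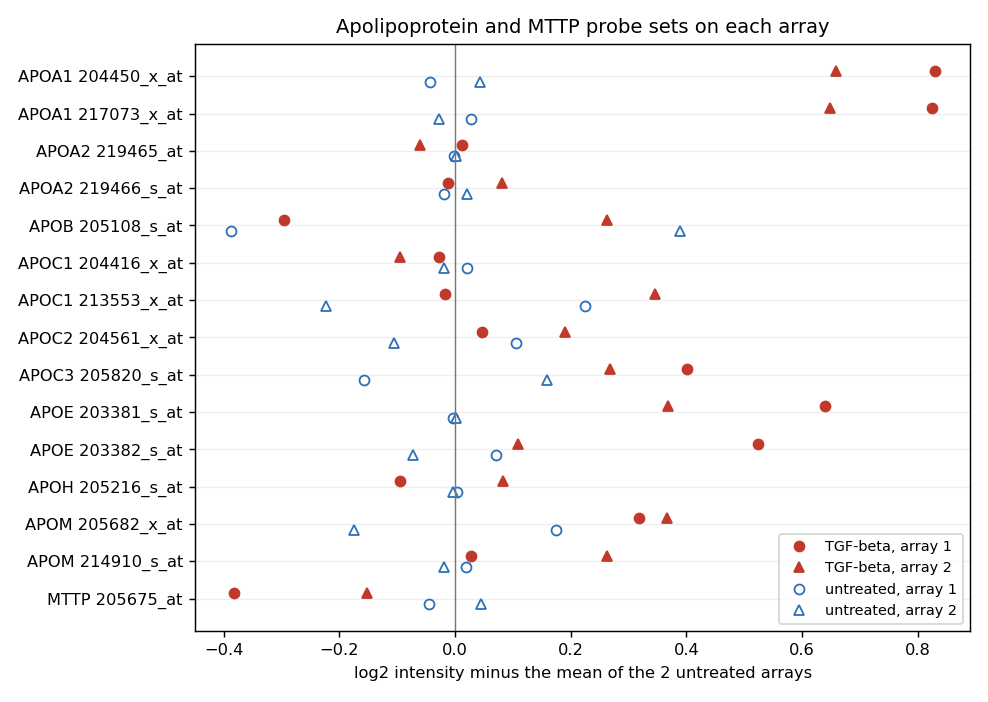
Log2 intensity of each of the 15 probe sets on each array, given as the difference from the mean of the 2 untreated arrays, with TGF-beta arrays in filled red and untreated arrays in open blue symbols. Both TGF-beta arrays lie to the right of both untreated arrays for APOA1 and APOE, the groups overlap for APOA2 and APOH, and the arrays of APOB are spread widely in both groups.

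Of the proteins of high-density lipoprotein, APOA1 rose and APOA2 did not pass. APOA1, the main protein of these particles and the activator of the enzyme LCAT, had intensities of 3484 and 3095 after TGF-beta, against 1903 and 2020 in untreated cells, at its brightest probe set. Both TGF-beta arrays were above both untreated arrays. The log2 intensity was 11.68 ± 0.12 after TGF-beta and 10.94 ± 0.06 in untreated cells (SD, n = 2 each), a rise of 0.74 ± 0.11 on the log2 scale (SE), or 1.67-fold, with an adjusted p of 0.0378. The 95% interval of the log2 fold change was 0.48 to 1.01.

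The second APOA1 probe set read 3343 and 2958 after TGF-beta, against 1925 and 1853 in untreated cells, and gave a log2 fold change of 0.74 ± 0.11 (SE). In the fit over all probe sets both had an adjusted p of 0.0454. Their separation was again complete, but they share a target and are not replicates of each other, and both are of the _x_at type, whose probes can match related transcripts. The call for APOA1 was close to the threshold. It was lost under quantile normalization (log2 fold change 0.78, adjusted p = 0.0530) and with dim genes left out (0.74, adjusted p = 0.0514). The log2 fold change was 0.66 without TGF-beta array 1 and 0.83 without TGF-beta array 2.

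APOA2, the second most abundant protein of high-density lipoprotein, had intensities of 11090 and 11830 after TGF-beta and 11030 and 11340 in untreated cells. The groups overlapped. Its log2 fold change was 0.03, with a 95% interval of -0.21 to 0.28 (adjusted p = 0.909), and the other probe set gave -0.02. The interval of APOA2 ended below the value of APOA1, while the difference between the genes was not tested.

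APOM, the lipocalin that carries sphingosine 1-phosphate on high-density lipoprotein, was the dimmest member. It read 415.5 and 429.7 after TGF-beta, against 376.2 and 295.2 in untreated cells. The untreated arrays lay below both TGF-beta arrays but were 0.35 apart on the log2 scale. The log2 fold change was 0.34 ± 0.14 (SE), with an interval of 0.02 to 0.66 and an adjusted p of 0.254, and it was 0.52 without untreated array 1 and 0.17 without untreated array 2. Its other probe set, at 143.4 and 168.6 after TGF-beta and 142.5 and 138.8 in untreated cells, gave 0.14.

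**Figure D2:**
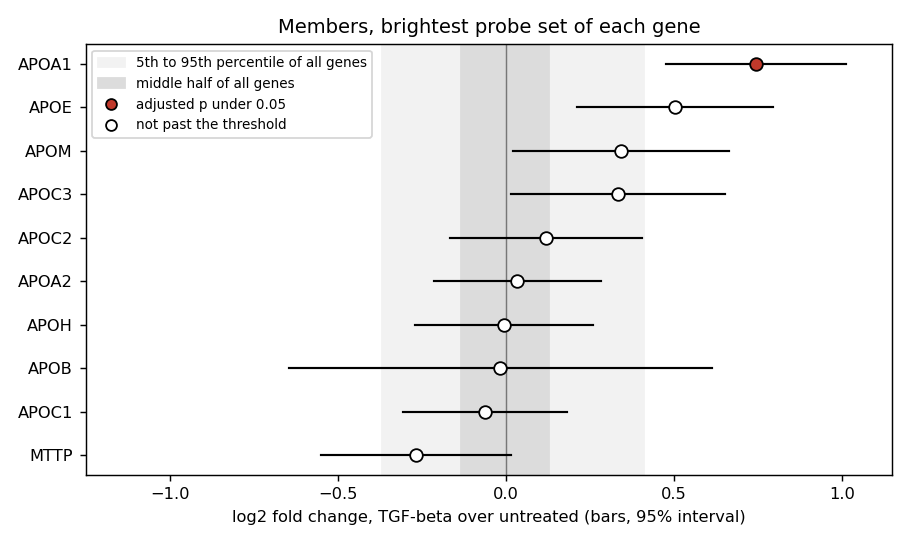
Log2 fold change of TGF-beta over untreated for the 10 genes at their brightest probe sets, with 95% intervals from limma as bars, over grey bands for all genes (the middle 50% from -0.13 to 0.13, the 5th to 95th percentile from -0.37 to 0.41). APOA1, filled red, is the 1 gene past the threshold, and APOE is the other member outside the wider band.

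The genes of very-low-density lipoprotein assembly did not pass. APOB, the large structural protein that stays with its particle, read 1877 and 2766 after TGF-beta and 1762 and 3018 in untreated cells. The arrays of a group were 0.56 apart on the log2 scale after TGF-beta and 0.78 apart in untreated cells, with array 2 the higher in both groups. Only 0.337% of all genes had a larger residual SD than APOB. Its log2 fold change was -0.017, and the interval of -0.65 to 0.61 holds changes as large as that of APOE in either direction. The sign depended on the arrays used, with 0.26 without TGF-beta array 1 and 0.37 without untreated array 2.

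MTTP, which moves triglyceride onto nascent APOB in the endoplasmic reticulum, read 1551 and 1820 after TGF-beta, against 1961 and 2086 in untreated cells. Both TGF-beta arrays were below both untreated arrays, and MTTP had the lowest log2 fold change of the members, -0.27 ± 0.12 (SE). The interval ran from -0.55 to 0.02, and the gene did not pass (adjusted p = 0.303). Without TGF-beta array 1 the value was -0.15 and without TGF-beta array 2 it was -0.38. Without untreated array 1, APOB at -0.41 was lower than MTTP at -0.31.

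Among the apolipoproteins C and E, APOE had the highest value, and none passed. APOE, the ligand by which remnant particles reach receptors of the LDL receptor family, read 2694 and 2233 after TGF-beta, against 1727 and 1733 in untreated cells. Both TGF-beta arrays were above both untreated arrays, and the TGF-beta arrays were the ones that differed from each other. The log2 intensity was 11.26 ± 0.19 after TGF-beta and 10.76 ± 0.004 in untreated cells (SD, n = 2 each), which gave a log2 fold change of 0.50 ± 0.13 (SE, adjusted p = 0.0941). With a variance prior that follows intensity the same value passed (adjusted p = 0.0135). The other APOE probe set read 1253 and 938.9 after TGF-beta and 915.5 and 828.8 in untreated cells, and gave 0.32 (adjusted p = 0.366 in the fit over all probe sets).

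APOC3, an inhibitor of lipoprotein lipase and of remnant uptake, read 965.2 and 880.0 after TGF-beta, against 655.5 and 815.8 in untreated cells. The groups did not overlap, but the untreated arrays were further apart than the untreated array 2 was from TGF-beta array 2. The log2 fold change of APOC3 was 0.33 ± 0.14 (SE), with an interval of 0.02 to 0.65 and an adjusted p of 0.258, and it was 0.18 without untreated array 1 and 0.49 without untreated array 2.

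APOC2, the cofactor that activates lipoprotein lipase, read 3777 and 4171 after TGF-beta and 3934 and 3399 in untreated cells, and the groups overlapped. Its log2 fold change was 0.12, with an interval of -0.17 to 0.40. APOC1, an inhibitor of the lipid transfer protein CETP, read 4875 and 4654 after TGF-beta and 5043 and 4901 in untreated cells. All 4 arrays lay close together, with a log2 fold change of -0.06 and an interval of -0.31 to 0.18. The second APOC1 probe set, which was dimmer, read 883.7 and 1135 after TGF-beta and 1045 and 765.3 in untreated cells. It gave 0.16, and its arrays scattered widely, with a larger residual SD in 4.10% of all probe sets.

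APOH, or beta-2-glycoprotein I, a phospholipid-binding plasma protein that is no close relative of the other apolipoproteins, read 5000 and 5659 after TGF-beta and 5352 and 5328 in untreated cells. The untreated arrays lay between the TGF-beta arrays. The log2 fold change was -0.006, with an interval of -0.27 to 0.26.

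The promoter windows printed here, each of 300 bases that end shortly after a transcript start, show the sequence context of 3 genes of 1 cluster on chromosome 19 with values from -0.06 to 0.50, APOE, APOC1 and APOC2, and of MTTP, the member with the lowest value. They come from RefSeq on build GRCh38.p14, which held 10 windows for 7 members, and are written 5′ to 3′ on the gene's strand, which is the plus strand for all 4. Capitals mark matches, on either strand, to 6 motifs that were searched: the TATA box (TATAAA), the nuclear receptor half-site (AGGTCA), the CCAAT box (CCAAT), the GC box (GGGCGG), the SMAD palindrome (GTCTAGAC) and the CAGA box (AGCCAGACA). The windows are chr19:44905546-44905845 for APOE, chr19:44914422-44914721 for APOC1, chr19:44945801-44946100 for APOC2 and chr4:99574574-99574873 for the downstream of 2 starts of MTTP.
APOE: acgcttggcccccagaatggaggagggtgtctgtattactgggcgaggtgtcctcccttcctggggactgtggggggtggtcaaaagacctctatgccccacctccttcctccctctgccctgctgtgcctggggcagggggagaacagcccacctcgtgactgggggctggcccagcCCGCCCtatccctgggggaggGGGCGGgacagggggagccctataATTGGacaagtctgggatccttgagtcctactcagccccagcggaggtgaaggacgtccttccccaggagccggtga
APOC1: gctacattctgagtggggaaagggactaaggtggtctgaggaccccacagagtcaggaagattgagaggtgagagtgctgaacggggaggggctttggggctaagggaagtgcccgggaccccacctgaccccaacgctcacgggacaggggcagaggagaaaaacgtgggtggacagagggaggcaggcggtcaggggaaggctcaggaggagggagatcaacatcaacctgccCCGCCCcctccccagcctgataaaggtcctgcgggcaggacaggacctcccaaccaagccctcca
APOC2: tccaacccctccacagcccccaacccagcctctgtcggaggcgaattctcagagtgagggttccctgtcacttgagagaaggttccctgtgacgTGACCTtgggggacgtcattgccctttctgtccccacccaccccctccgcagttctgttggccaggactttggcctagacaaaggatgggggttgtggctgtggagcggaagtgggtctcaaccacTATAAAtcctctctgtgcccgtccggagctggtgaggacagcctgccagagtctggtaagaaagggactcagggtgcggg
MTTP: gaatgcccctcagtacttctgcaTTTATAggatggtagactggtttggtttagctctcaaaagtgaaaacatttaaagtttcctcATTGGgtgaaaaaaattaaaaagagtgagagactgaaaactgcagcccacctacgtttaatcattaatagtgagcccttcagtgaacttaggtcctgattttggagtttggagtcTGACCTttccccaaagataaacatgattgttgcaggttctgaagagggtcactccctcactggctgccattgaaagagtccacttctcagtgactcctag

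In these windows APOE held 2 GC boxes and a CCAAT box, and APOC1 held a GC box. APOC2 held a TATA box 30 bases before its start and a nuclear receptor half-site. MTTP held a half-site 50 bases before its start, with a CCAAT box and a TATA box further upstream. The TATA box of APOC2 and the downstream GC box of APOE were on the plus strand. All other matches in these windows, those of MTTP among them, were on the minus strand. Over all 10 windows of the members, the half-site was in 2 (13.8% of 35116 windows of all genes), the TATA box in 2 (11.5%), the GC box in 3 (45.0%) and the CCAAT box in 3 (34.6%). The SMAD palindrome and the CAGA box were in 0 of the 10, and in 0.202% and 0.288% of all windows. APOA1, APOB and APOC3 had no window, so APOA1, the member that was called, was not searched. The 6 motifs do not overlap one another in these windows. A match is a description of the letters and says nothing of binding in these cells.

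Values spread widely among genes that neighbour each other, and the differences between neighbours were not tested. In the chromosome 11 cluster, APOA1 stood at 0.74 and APOC3, next to it, at 0.33, while APOA4, on the other side of APOC3, stood at -0.11 and SIK3 (a kinase of the AMPK family), on the other side of APOA1, at 0.14. APOA4 was dim, with a log2 intensity of 5.14 and 5.08 after TGF-beta and 5.06 and 5.39 in untreated cells. Of 6 measured neighbours there 0 passed (limma, 0 at an unadjusted p under 0.05, where 18% of all genes passed). The median of the 6 was 0.08.

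In the chromosome 19 cluster, APOE stood at 0.50, APOC1 at -0.06, APOC4 at 0.03 and APOC2 at 0.12. APOC4 was dim as well, at 4.74 and 5.05 after TGF-beta and 4.82 and 4.90 in untreated cells. On the far side of APOE, TOMM40, a pore of the mitochondrial outer membrane, had a value of 0.39 (adjusted p = 0.138), with -0.07, 0.25 and 0.61 (adjusted p = 0.0504 in the fit over all probe sets) from its other 3 probe sets. The probe sets are named as in the platform annotation, and those that gave 0.39, -0.07 and 0.25 may in part belong to the adjacent APOE. NECTIN2, a cell adhesion protein, rose by 0.63 ± 0.11 (SE, adjusted p = 0.0433). CLPTM1, beyond APOC2, stood at 0.42 (adjusted p = 0.120). Of 11 measured neighbours on chromosome 19, 1 rose, 0 fell and 10 did not pass. At an unadjusted p under 0.05, 5 were higher and 0 lower, where 9.35% of all genes were higher and 8.6% lower. The values of the 11 ran from -0.16 (GEMIN7) to 1.02 (BCL3, a regulator of NF-kB, adjusted p = 0.0508), with a median of 0.16. BCL3 passed with median centring (adjusted p = 0.0480) and with the intensity trend (0.00918). Its other, dimmer probe set gave 0.33, and the mean of its probe sets gave 0.68 and did not pass (adjusted p = 0.07). Without untreated array 1 the BCL3 value was 1.30 and without untreated array 2 it was 0.73. The call for NECTIN2 was lost under quantile normalization (adjusted p = 0.0570) and with dim genes left out (adjusted p = 0.0515). Its value was 0.58 without TGF-beta array 1 and 0.68 without TGF-beta array 2.

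**Figure D3:**
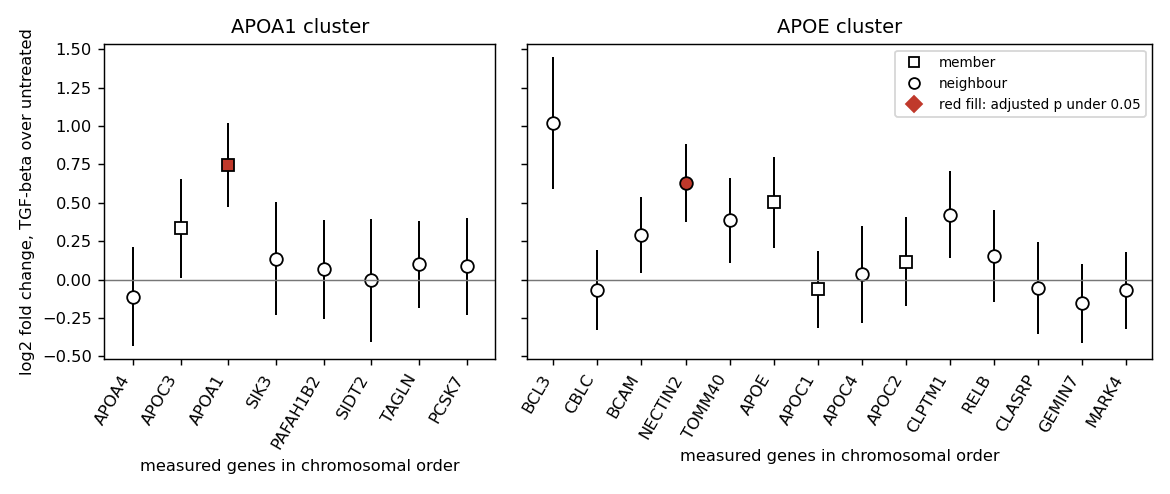
Log2 fold change of TGF-beta over untreated, with 95% intervals, for the measured genes around APOA1 and around APOE, in the order of their starts on chromosomes 11 and 19 (equal spacing, not to scale). Members are squares and neighbours circles, and the 2 red symbols, APOA1 and NECTIN2, are the genes past the threshold.

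Other genes of lipoprotein metabolism were described by 6 lists, which held 97 genes beside the members, of which 75 were measured. Of these 3 rose, 0 fell (limma) and 72 did not pass, where 0.658% of all genes rose and 0.567% fell. The median log2 fold change of the 75 was 0.03. SCARB1, SAA4 and SREBF1 rose. At an unadjusted p under 0.05, 18 were higher and 6 lower, where 9.35% of all genes were higher and 8.6% lower. These lists include transcription factors and chaperones with other roles.

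SCARB1, or SR-BI, the receptor that takes up cholesterol from high-density lipoprotein, had log2 intensities of 8.14 and 8.37 after TGF-beta, against 7.47 and 7.26 in untreated cells. The groups were clearly apart, and SCARB1 rose by 0.90 ± 0.13 (SE), or 1.86-fold, with an adjusted p of 0.0354. Its other probe sets gave 0.41, where the groups did not overlap, and -0.05. The probe set at -0.05 read 25.7 to 28.1, below the lower quartile of every array (28.8 to 29.2). Averaging all SCARB1 probe sets, this dim one included, gave 0.42 (adjusted p = 0.0817). It was the 1 call among 10 measured receptors and clearance factors, whose median was 0.16. The lowest value in that list was that of VLDLR, the receptor for very-low-density lipoprotein, at -0.57 (adjusted p = 0.395), with TGF-beta arrays at 5.24 and 4.78 and untreated arrays at 5.06 and 6.10. That value depended on 1 array, at -0.053 without untreated array 2 and -1.09 (adjusted p = 0.0213) without untreated array 1.

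SAA4, a serum amyloid A protein carried on high-density lipoprotein, had log2 intensities of 8.37 and 8.48 after TGF-beta, against 7.74 and 7.55 in untreated cells, and rose 1.71-fold (adjusted p = 0.0371). It was the 1 call among 13 other apolipoproteins, of which 9 were dim (mean log2 intensity under 6) and whose median was -0.002. CLU (clusterin, or apolipoprotein J), which was picked after its value was seen, stood at 0.45 (adjusted p = 0.120), and APOL6 had the lowest value of the list, -0.16.

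SREBF1, a transcription factor of lipid synthesis, rose 1.74-fold (adjusted p = 0.0403), with log2 intensities of 6.22 and 5.94 after TGF-beta, against 5.26 and 5.31 in untreated cells, and so was dim. Of 19 measured transcription factors known to act on apolipoprotein genes or MTTP, it was the 1 call, and the median was 0.03. Without adjustment 5 of the 19 were higher and 2 lower at p under 0.05, where 9.35% of all genes were higher and 8.6% lower. RXRA, the partner of the lipid-sensing nuclear receptors, had the highest value, 0.81 (adjusted p = 0.0558), while its other probe set gave -0.22. RXRA passed with the intensity trend (adjusted p = 0.0182) and without untreated array 1 (adjusted p = 0.0136). RORA, a nuclear receptor known in mice to act on Apoa1 and Apoc3, had the lowest, -0.51 (adjusted p = 0.0778). The calls for SCARB1, SAA4 and SREBF1 were each lost under quantile normalization (adjusted p = 0.0530, 0.0531 and 0.0530). Those for SCARB1 and SAA4 were also lost with dim genes left out (adjusted p = 0.0514 for each). Without 1 of the TGF-beta arrays the log2 fold changes of these genes lay between 0.66 and 1.01. The call for SREBF1 was also lost with an offset of 16 (adjusted p = 0.0514).

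Of 18 genes of APOB editing, lipid transfer, assembly and secretion, 0 passed in the limma fit, and their median was 0.02. Without adjustment 2 were higher and 3 lower at p under 0.05, where 9.35% of all genes were higher and 8.6% lower. SOAT2, which makes the cholesteryl esters of liver particles, was lowest at -0.55 ± 0.10 (SE, adjusted p = 0.0551). It passed, as a fall, with median centring (adjusted p = 0.0493), with the intensity trend (0.0323) and with the mean of probe sets (0.0458). Its log2 intensities were 5.11 and 5.09 after TGF-beta, against 5.64 and 5.66 in untreated cells. SEC24C, a coat protein of vesicles that leave the endoplasmic reticulum, was highest at 0.34, with 0.15 without untreated array 1 and 0.53 without untreated array 2. P4HB, the smaller subunit of the transfer protein that MTTP forms, was picked after its value was seen and stood at 0.24 (adjusted p = 0.335), where MTTP stood at -0.27.

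Lipases and their regulators had 0 calls among 8 in the limma fit. Without adjustment 2 were higher and 1 lower at p under 0.05, where 9.35% of all genes were higher and 8.6% lower. The median of these 8 was -0.03, with values from -0.30 for LIPA (lysosomal acid lipase) to 0.45 for LMF1 (a lipase maturation factor). The other LMF1 probe sets gave 0.085, with overlapping groups, and 0.34, and the mean of its probe sets gave 0.29. Without 1 array LIPA ran from -0.41 to -0.19 and LMF1 from 0.195 to 0.70, the last without untreated array 1, where LMF1 passed (adjusted p = 0.0349). High-density lipoprotein efflux genes had 0 calls among 7 in that fit (without adjustment, 2 higher and 0 lower) and their median was 0.02. There PCOLCE2, an enhancer of procollagen processing that in mice also acts on APOA1 processing, was highest at 0.46. It was 0.27 without untreated array 1 and 0.66 without untreated array 2, where it passed (adjusted p = 0.0296). ABCA1, the transporter that loads lipid onto APOA1, was lowest at -0.03, with an interval of -0.44 to 0.37.

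**Figure D4:**
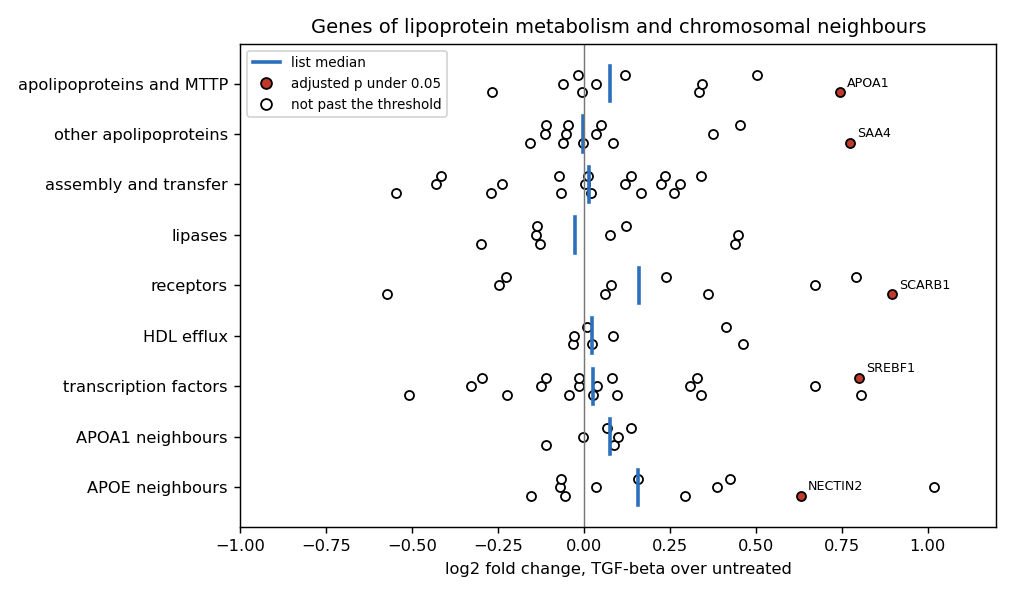
Log2 fold change of TGF-beta over untreated for each measured gene of the members, the 6 lists of lipoprotein metabolism and both sets of chromosomal neighbours, with the list median as a blue line. The 5 red points are the genes past the threshold, APOA1, SAA4, SCARB1, SREBF1 and NECTIN2, and the list medians lie between -0.03 and 0.16.

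The 5 genes whose values over the 4 arrays were most like those of APOA1, by the Euclidean distance between log2 values centred on each gene's mean, were TWNK (0.045), PHLDA1 (0.046), PDGFRA (0.049), TLE1 (0.067) and CHERP (0.088). All 5 were called, with log2 fold changes of 0.732, 0.745, 0.756, 0.754 and 0.769 in the same order. With 4 arrays in 2 groups, this measure picks genes with a change of the same size and the same small differences within groups.

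**Figure D5:**
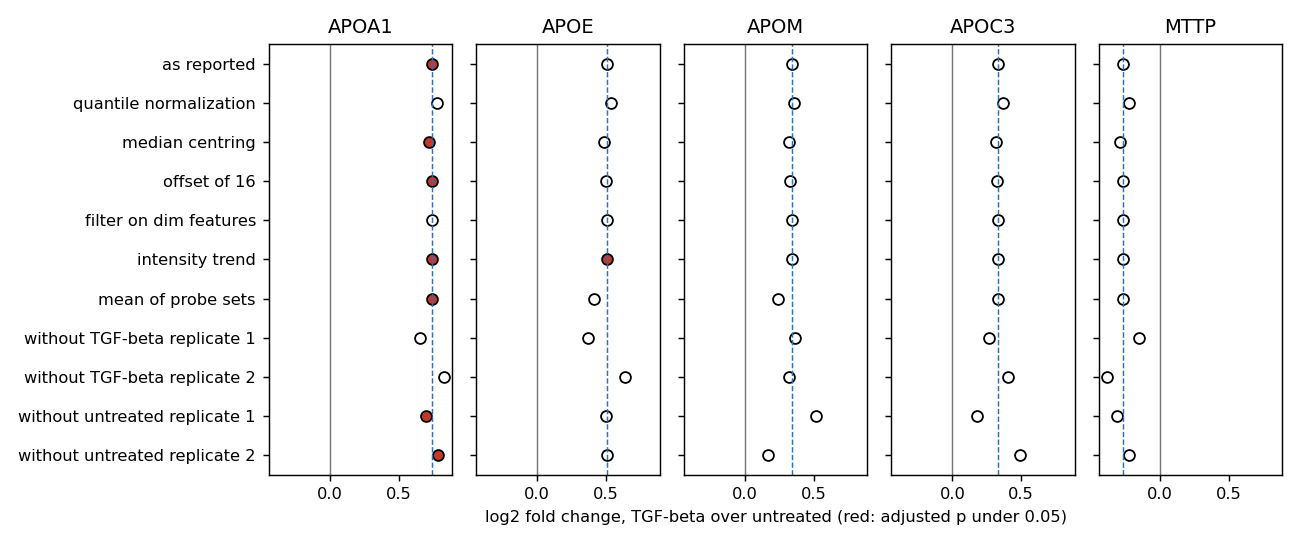
Log2 fold change of TGF-beta over untreated for the 5 members with the largest values in either direction. The settings of the analysis other than the replicate block are shown, and the fits without each array. Red symbols mark an adjusted p under 0.05, and a dashed line marks the reported value. APOA1 stays between 0.66 and 0.83 and passes in some settings, APOE passes with the intensity trend, and APOM, APOC3 and MTTP pass in none of those shown.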

How the data were processed

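The authors deposited 1 linear intensity for each probe set on each array. The affy package is named per the submitters' processing notes, but how background, normalization and summary were handled is not stated there. Quartiles were nearly equal between arrays, so no scaling was added. These were taken to log2 without an offset, so a fold is a ratio of geometric means. Of 22215 probe sets, 19724 name 1 gene in the platform annotation, which can be old, 568 name several and 1923 none. Symbols were updated by gene number through RefSeq (GRCh38.p14) for 19707, and RefSeq also gave the order of neighbouring genes. The brightest probe set over the 4 arrays stood for each of 12165 genes. No detection calls were used. Precision is limited by the number of arrays, 4.

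Groups were compared with limma 3.58.1 in R 4.3.3 (lmFit and eBayes, Benjamini-Hochberg adjustment), over all genes and again over all probe sets, with no covariate. The fit over genes had 7.41 degrees of freedom per gene, 5.41 of them from the prior. Each p comes from limma, from these fits or from the alternative named beside it. The fit was tested on simulated data. Alternatives were quantile normalization, median centring, an offset of 16, leaving out features with a mean log2 intensity under 6, an intensity trend, a replicate block, the mean of a gene's probe sets and leaving out each array. Plots used matplotlib 3.10.9. The members and lists were chosen with earlier results of these data known. The text names all members, the called genes and the highest and lowest of each list, genes next to a member, 5 genes near APOA1 and the markers ALB, AFP, HNF4A and TTR. Other genes named (SERPINA1, AMBP, VIL1, LUM, CLU and P4HB) were picked after their values were seen. Lists overlap where genes have several roles. Of the 116 listed genes that are not members, 26 were not analysed here.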

Additional observations from a re-analysis of the deposited data

How the results depend on the processing

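Counts of calls moved with the settings more than the values did. With dim genes left out, 6368 of the 12165 genes and 51 of the 90 pathway and neighbour genes were tested. Over all genes the 149 calls became 63 under quantile normalization (32 higher, 31 lower), 57 with dim genes left out, 616 with an intensity trend in the variance prior and 1229 with the number in the titles as a replicate block, and 0 to 523 when 1 array was left out. Leaving out TGF-beta array 1 or 2 gave the 0 (limma, with 1326 and 1563 genes at an unadjusted p under 0.05). The member genes called numbered 0 under quantile normalization (4 at an unadjusted p under 0.05), 0 with dim genes left out (2), 2 with the intensity trend, 2 with the replicate block and 0 to 1 without 1 array. The member probe sets called numbered 0 under quantile normalization (5 unadjusted), 0 with an offset of 16 (6) and 0 with dim probe sets left out (3). They numbered 3 with the intensity trend and 3 with the replicate block, against 2 in the reported fit. How many of all probe sets passed in these settings is not given here. Of the pathway and neighbour genes, 4 were called, and 0 under quantile normalization (25 unadjusted), 0 with dim genes left out (22), 13 with the intensity trend, 20 with the replicate block and 0 to 11 without 1 array. The second member called with the trend (adjusted p = 0.0135) and with the block (adjusted p = 0.00695) was APOE. Among the other genes named, the block also brought past the threshold BCL3, CLPTM1, LMF1, PCOLCE2 and RXRA as higher and RORA, SOAT2 and VLDLR as lower (adjusted p of 2.24e-08 to 0.0284). Arrays with the same number did not deviate together (r = 0.01 across 12165 genes, 2 pairs), so the numbers were not taken as pairs. The cause of these moves was not tested.

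Signs of values near 0 turned. Under quantile normalization APOB was 0.014 and APOH 0.017. With the mean of all probe sets APOC1 was 0.051, ABCA1 0.009 and SIK3 -0.054. Without 1 array the log2 fold changes ran from -0.41 to 0.37 for APOB, -0.095 to 0.084 for APOH, -0.013 to 0.081 for APOA2, -0.28 to 0.055 for APOA4, -0.13 to 0.19 for APOC4, -0.30 to 0.23 for ABCA1 and -0.086 to 0.36 for SIK3. Among single probe sets the ranges were -0.061 to 0.39 for the dimmer one of APOC1 and -0.061 to 0.012 for the dimmer one of APOA2. APOA1, APOC2, APOC3, APOE, APOM and MTTP kept their sign in every setting run. Where the groups do not overlap, leaving out an array cannot turn the sign. The members' median was 0.017 to 0.23 without 1 array, against 0.08 with all. The extremes came without TGF-beta array 2 (0.017) and without TGF-beta array 1 (0.23). Median centring moved the median of all genes to -0.03.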
